A study of Mus musculus with 10 samples.

Results

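The Krüppel-like factors (KLFs) are transcription factors that bind GC-rich and CACCC sequences in promoters through zinc fingers at the end of the protein. The genes *Klf2*, *Klf3*, *Klf4*, *Klf5*, *Klf6*, *Klf7*, *Klf9*, *Klf10*, *Klf13* and *Klf15* were taken by symbol from the hippocampal gene table, which gave 10 of the 14 KLF genes in the table, out of 15900 genes in all. Their RNA was measured in whole hippocampi of 10 mice by cap analysis of gene expression (CAGE), which sequences the capped 5′ ends of transcripts and counts them as tags. The question put to the family was how its genes responded to status epilepticus (SE) and to the antiepileptic drug levetiracetam (LEV). All 10 genes passed the minimum level for testing.

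All mice were male ICR (CD-1) mice. There were 5 groups of 2 mice. Pre-SE mice are labelled untreated, and in the methods of the study control mice received saline in place of pilocarpine (PILO). The mice of the other 4 groups received methyl scopolamine and then PILO, a muscarinic agonist, at 290 mg/kg and an age of 9 to 10 weeks. SE was defined by 5 generalized convulsive seizures and was ended with diazepam in all of them, so that the groups with SE share SE and diazepam. SE 6 h and SE 2 days mice received no LEV. SE + LEV 6 h and SE + LEV 2 days mice received oral LEV at 360 mg/kg, 1 time and 5 times before sampling, respectively. The hippocampus was not divided into regions or cell types, so that fewer cells of a type and less RNA per cell cannot be told apart.

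Some KLFs recruit acetyltransferases and mainly activate transcription (KLF2, KLF4, KLF5, KLF6 and KLF7), some bind the corepressor SIN3A (KLF9, KLF10 and KLF13), and KLF3 binds the corepressor CtBP. *Klf2* and *Klf4* are well known from blood vessels, where shear stress raises them in endothelial cells through the kinases MEK5 and ERK5 and the factor MEF2. *Klf9* is induced by glucocorticoids and thyroid hormone and by neuronal activity, and KLF4, KLF6, KLF7 and KLF9 are known in neurons as regulators of axon growth. *Klf15* is a glucocorticoid target with roles in metabolism.

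The promoters of *Klf4* and *Klf6* are shown because these were the members that passed the test after SE. That of *Klf2* is shown because it was the only member promoter searched that held a MEF2 site. Each line gives the 250 bases before the start of the RefSeq transcript, 5′ to 3′ on the strand of the gene, with the sequence from the RefSeq promoter table of GRCm38.p6 and its position found by exact match in mm9. They lie at chr8:74842711-74842960 on the plus strand (*Klf2*), chr4:55545348-55545597 on the minus strand (*Klf4*) and chr13:5860485-5860734 on the plus strand (*Klf6*). Capitals mark GC boxes (GGGCGG on either strand, the sequence that KLF and SP proteins bind) and, in *Klf2*, the MEF2 site.
Klf2: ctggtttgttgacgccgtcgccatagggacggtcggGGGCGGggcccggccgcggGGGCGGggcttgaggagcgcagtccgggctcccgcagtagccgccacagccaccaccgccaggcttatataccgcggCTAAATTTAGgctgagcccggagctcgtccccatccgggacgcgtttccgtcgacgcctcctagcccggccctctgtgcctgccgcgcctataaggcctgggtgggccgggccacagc
Klf4: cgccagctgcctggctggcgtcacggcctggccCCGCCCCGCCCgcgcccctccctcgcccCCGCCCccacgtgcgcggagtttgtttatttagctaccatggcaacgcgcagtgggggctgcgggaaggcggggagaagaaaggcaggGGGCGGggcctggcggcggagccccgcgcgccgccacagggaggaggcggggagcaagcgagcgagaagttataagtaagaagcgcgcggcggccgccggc
Klf6: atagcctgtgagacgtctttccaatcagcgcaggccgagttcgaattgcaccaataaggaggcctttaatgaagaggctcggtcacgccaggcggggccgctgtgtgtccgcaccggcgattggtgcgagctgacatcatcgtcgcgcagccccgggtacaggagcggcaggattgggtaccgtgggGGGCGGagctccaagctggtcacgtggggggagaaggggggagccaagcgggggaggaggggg

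Promoter windows of 300 bases, from 250 before to 50 after the start, were found for 8 of the 10 genes. *Klf5* and *Klf10* were not matched. A GC box was present in 7 of the 8 windows and in 35.7% of the 32851 promoters of the table. It occurred 2 times in *Klf2*, 4 times in *Klf4*, where a pair of them overlap by 1 base, and 1 time in *Klf6*, 63 to 58 bases before the start. The CACCC sequence was found in 6 of 8 windows (57.5% of all promoters), but not in those of *Klf4* and *Klf6*. The MEF2 site CTAAATTTAG of *Klf2* lay 118 to 109 bases before the start, and a MEF2 site was found in 3.19% of all promoters. The AP-1 motif TGANTCA was present in *Klf9* alone among the 8 (7.81% of all promoters), as TGAATCA at 89 to 83 bases before the start, where it shares 2 bases with a CACCC sequence. None of the 8 windows held the CRE TGACGTCA (1.79% of all promoters), a CArG box (1.63%) or the palindromic glucocorticoid response element (0.475%). Such matches describe the letters in these windows and not sites that were shown to be bound.

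The genes themselves lie on 10 different chromosomes. In mm9, *Klf4* spans chr4:55540013-55545347 on the minus strand and *Klf6* chr13:5860735-5869639 on the plus strand, and neither overlaps another annotated gene. *Klf7* (chr1:64076021-64168856, minus strand) overlaps Gm17427 and Gm13748 on the other strand, and *Klf9* (chr19:23215716-23241401, plus strand) contains the microRNA gene Mir1192. These 3 overlapping genes are not among the genes of the table, and the other 8 members overlap none.

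The libraries held 10540698 to 51710968 tags on the listed genes, a ratio of 4.91 between the deepest and the shallowest. Levels are given in CPM, the tag count of a gene scaled to the total of its library. A transcript gives 1 tag at its 5′ end whatever its length, so that CPM was compared between genes without division by length. The mice of a group differed in the amount of choroid plexus, the epithelium next to the hippocampus. The summed CPM of 4 of its markers, led by *Ttr*, came to 13 and 1710 before SE, to 9 and 4025 in SE 6 h, 869 and 41 in SE + LEV 6 h, 68 and 23 in SE 2 days and 1507 and 27 in SE + LEV 2 days mice. With this sum as a covariate, an analysis added after the data were seen, no member gained or lost a call in any of the comparisons. The 7 neuron markers and the 4 markers of hippocampal excitatory neurons that are in the table were detected in all libraries. Nothing in the sources ties the mice of a group to separate litters or batches. The p-values rest on the spread between mice within groups, pooled over the 5 groups and shared in part across genes.

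In pre-SE mice, *Klf9* and *Klf13* were the most abundant members. *Klf9* was at 168 and 152 CPM, *Klf13* at 127 and 143 CPM, and *Klf3* at 49.4 and 50.3 CPM. These 3 genes encode KLFs that bind corepressors, as does *Klf10*, which had rank 6 in the order. None of the 3 overlapped with a neighbour in the order. Next came *Klf6*, *Klf15*, *Klf10*, *Klf5* and *Klf7*, whose means ran from 30.5 to 18.0 CPM and whose neighbouring levels overlapped between mice. *Klf2* at 5.0 and 6.65 CPM and *Klf4* at 2.86 and 3.87 CPM, the genes best known from endothelium, were the lowest of the 10. *Klf9* made up 34.0% of the summed level of the 10 genes and *Klf13* 28.8%, against 6.49% for *Klf6* and 0.717% for *Klf4*.

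**Figure D1:**
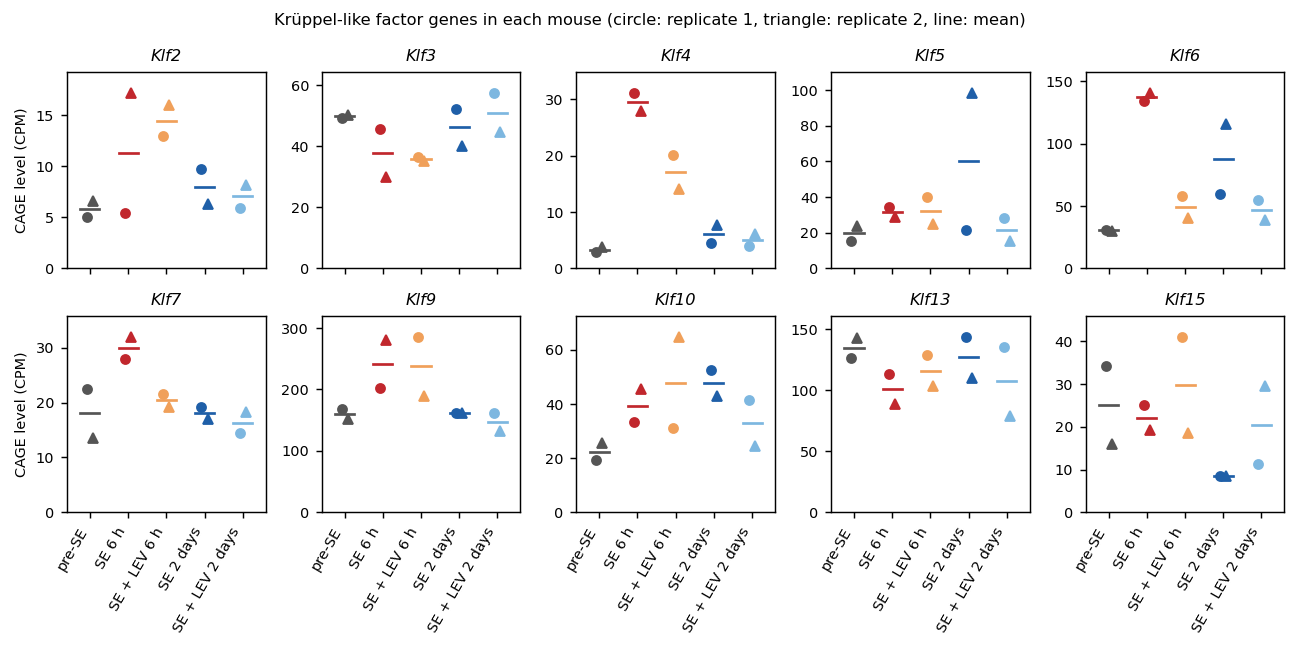
CAGE level in CPM (vertical axes, each from 0 with its own scale) of each of the 10 genes in the 5 groups (horizontal axes), with a circle for replicate 1, a triangle for replicate 2 and a line for the mean of both mice. *Klf4* and *Klf6* stand apart from pre-SE in both SE 6 h mice, and *Klf5* reached 98.3 CPM in a single SE 2 days mouse.

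At 6 h after SE, the levels of *Klf4* and *Klf6* were upregulated and no member was called lower. The call was made with limma on log2(CPM + 0.1) at an adjusted p of at most 0.05 over the 15851 genes tested. The 2 of 10 members called higher stand beside 2.76% of all genes, and the 0 members called lower beside 0.202%. For the 10 genes the median log2 difference was 0.73. Over all genes it was −0.13, which became −0.005 after median-of-ratios rescaling. For 6 members the SE 6 h levels all lay above the pre-SE levels, as for 18.6% of all genes, and for 2 members all lay below, as for 31.3%.

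*Klf4*, which encodes one of the factors used to reprogram cells to pluripotency, was at 31.1 and 28.0 CPM in SE 6 h mice and at 2.86 and 3.87 CPM in pre-SE mice. The means were 29.6 ± 2.21 and 3.37 ± 0.714 CPM (SD, n = 2), a ratio of 8.79. The log2 difference was 3.11 ± 0.38 (SE), with a 95% interval from 2.28 to 3.95 and an adjusted p of 0.0030. It remained called when each mouse was left out and in every other setting tried. *Klf4* moved from the lowest place in the family to the eighth, above *Klf15* and *Klf2*, with levels that overlapped with those of *Klf5* and *Klf7*.

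*Klf6*, an injury-responsive activator, was at 134 and 140 CPM in SE 6 h mice and at 31.0 and 29.9 CPM in pre-SE mice. The SDs of 4.36 and 0.728 CPM (n = 2) were small beside the difference of the means, 137 and 30.5 CPM, whose ratio was 4.51. The log2 difference was 2.17 ± 0.33 (SE), with an interval from 1.44 to 2.90 and an adjusted p of 0.0075. Without SE 6 h replicate 2 the difference was 2.14 and the call was lost (adjusted p = 0.067). *Klf6* passed *Klf13* to become second in level after *Klf9*, and its share of the summed level rose from 6.49% to 20.2%.

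The other activators of the family were not called at 6 h. *Klf7*, a regulator of neuronal differentiation, was at 28.0 and 32.0 CPM in SE 6 h mice and at 22.6 and 13.5 CPM before SE. Its log2 difference was 0.77 (0.12 to 1.43, adjusted p = 0.21), and the groups did not overlap. *Klf5*, known from proliferating epithelium and smooth muscle, was at 34.4 and 28.9 CPM, above the pre-SE mice at 15.3 and 24.0 CPM. The interval of its difference, 0.72, ran from −0.62 to 2.05 (adjusted p = 0.57).

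*Klf2* differed between the SE 6 h mice themselves. It was at 5.42 CPM in replicate 1 and at 17.2 CPM in replicate 2, against 5.0 and 6.65 CPM in pre-SE mice, so that the groups overlapped (log2 difference 0.74, adjusted p = 0.47). Without replicate 2 of SE 6 h the difference was −0.09. In the same replicates, the summed level of the 8 endothelial markers was 119 and 192 CPM, and that of the 4 choroid plexus markers 9 and 4025 CPM. Among the endothelial markers, *Flt1* was at 41.0 and 87.2 CPM. *Pecam1* (16.8 and 16.4 CPM) and *Tek* (2.41 and 1.71 CPM) were lower in replicate 2, and the others were higher. In SE + LEV 6 h mice the endothelial sums were 101 and 176 CPM, with *Klf2* at 13.0 and 16.0 CPM. In SE 2 days mice they were 140 and 121 CPM, with *Klf2* at 9.75 and 6.30 CPM. In SE + LEV 2 days mice the endothelial sums were 112 and 176 CPM and the choroid plexus sums 1507 and 27 CPM, with *Klf2* at 5.92 and 8.21 CPM. Pre-SE replicate 2, with a choroid plexus sum of 1710 CPM, had *Klf2* at 6.65 CPM. The part of either set of markers in the level of *Klf2* was not tested.

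Among the KLFs that bind corepressors, the estimates went both ways at 6 h. *Klf9* was at 202 and 280 CPM and *Klf10*, first described as a gene induced early by TGF-β, at 33.3 and 45.6 CPM. Both were above the pre-SE mice, with log2 differences of 0.57 (−0.003 to 1.15, adjusted p = 0.28) and 0.81 (−0.04 to 1.66, adjusted p = 0.30). *Klf3* at 45.9 and 30.1 CPM and *Klf13* at 113 and 88.9 CPM were below both pre-SE mice. Their log2 difference was −0.42 each, with adjusted p of 0.43 and 0.47. None of these 4 passed the test. *Klf15* at 25.1 and 19.2 CPM lay between the pre-SE mice at 34.2 and 16.1 CPM. The sum over the 10 genes was 474 and 465 CPM in pre-SE and 653 and 710 CPM in SE 6 h mice.

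At 2 days after SE, *Klf6* was the only member called, 1 of 10 called higher beside 5.07% of all genes, and 0 called lower beside 0.593%. *Klf6* was at 59.7 and 116 CPM, above the pre-SE mice, with a wide spread between the mice (87.6 ± 39.5 CPM, SD, n = 2). The log2 difference was 1.45 ± 0.33 (SE), with an interval from 0.72 to 2.17 and an adjusted p of 0.030. This call depended on single mice. It was lost without pre-SE replicate 1 (adjusted p = 0.14), without pre-SE replicate 2 (0.12), and without SE 2 days replicate 2 (0.27), where the difference was 0.97. It was also lost when the fit had no mean-variance trend.

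*Klf4* was at 4.54 and 7.69 CPM, above both pre-SE mice, without passing the test (log2 difference 0.81, −0.02 to 1.65, adjusted p = 0.26). Against SE 6 h it fell by 2.30 on the log2 scale (SE 0.38, adjusted p = 0.0091). This made 1 of 10 members called lower between 6 h and 2 days, beside 1.11% of all genes, and 0 called higher, beside 3.14%. Without SE 6 h replicate 1, SE 6 h replicate 2 or SE 2 days replicate 1 that call was lost (adjusted p = 0.074, 0.060 and 0.081). The decrease of *Klf6* over the same time, −0.72 (−1.45 to 0.002), had an adjusted p of 0.25.

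*Klf10* and *Klf15* moved apart at 2 days without passing the test. *Klf10* was at 52.6 and 42.9 CPM, both above the pre-SE mice at 19.2 and 25.6 CPM (log2 difference 1.10, 0.25 to 1.95, adjusted p = 0.14). *Klf15* was at 8.56 and 8.45 CPM, both below the pre-SE mice and the SE 6 h mice (log2 difference to pre-SE −1.45, −2.62 to −0.28, adjusted p = 0.15). DESeq2 on the recovered tags gave *Klf15* an adjusted p of 0.033. At an unadjusted p under 0.05 there were 2 members higher, *Klf6* and *Klf10*, and 1 lower, *Klf15*, beside 1977 and 1155 of all genes. The levels of *Klf10* and *Klf15* in SE 2 days mice did not overlap with those before SE, as held for 26.3% of all genes in the upward and 25.6% in the downward direction.

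*Klf5* had the largest spread of all members at this time, with 21.7 CPM in replicate 1 and 98.3 CPM in replicate 2. Replicate 1 was within the range of the pre-SE mice. The difference to pre-SE was 1.27 (−0.07 to 2.60, adjusted p = 0.28). It rested on replicate 2, since the difference was 0.18 without that mouse, and *Klf5* was called without replicate 1 (2.36, adjusted p = 0.028). Among the other libraries *Klf5* did not exceed 39.9 CPM. In the same pair of mice, the summed markers of infiltrating myeloid cells were 36 and 70 CPM, and those of microglia 865 and 1020 CPM. In SE + LEV 2 days mice the myeloid sums were 76 and 22 CPM and the microglia sums 1161 and 919 CPM. *Klf5* was at 28.3 and 15.3 CPM in those mice. Whether these markers bear on *Klf5* was not tested.

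The levels of the remaining members overlapped with those of pre-SE mice at 2 days. *Klf9* was at 162 CPM in both mice, *Klf13* at 144 and 110 CPM and *Klf3* at 52.3 and 40.1 CPM. *Klf7* was at 19.3 and 17.1 CPM and *Klf2* at 9.75 and 6.30 CPM. The log2 differences of these 5 genes ran from −0.12 to 0.44.

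**Figure D2:**
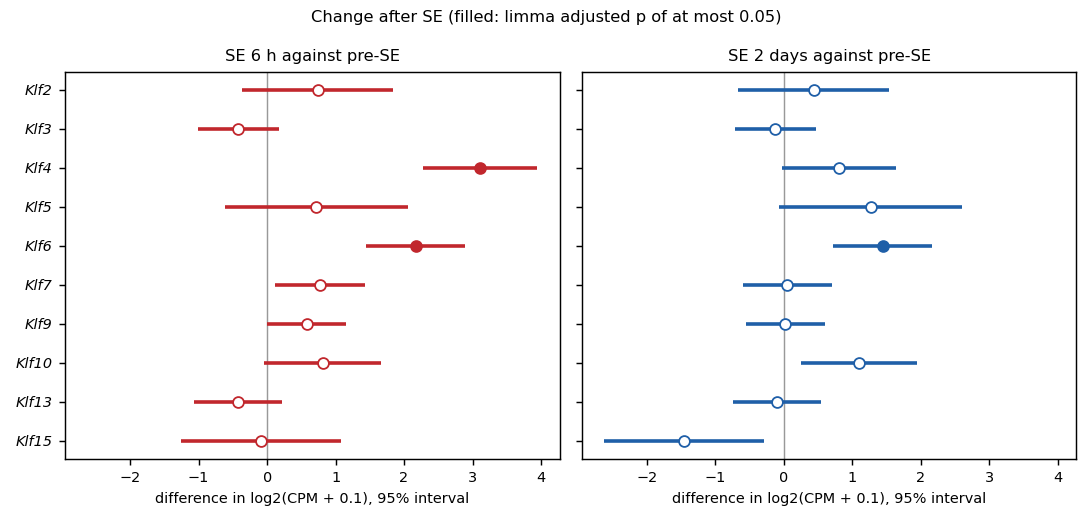
Log2 difference of each gene from pre-SE (horizontal axes, difference in log2(CPM + 0.1)) at 6 h (left) and 2 days (right) after SE. Points are the limma estimates, bars their 95% intervals, and filled points have an adjusted p of at most 0.05, which held for *Klf4* (3.11) and *Klf6* (2.17) at 6 h and for *Klf6* (1.45) at 2 days.

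With LEV, *Klf6* and *Klf4* were lower at 6 h than without it in every mouse, but no member passed the test. The comparison of SE + LEV 6 h with SE 6 h called 0 members higher, beside 0% of all genes, and 0 lower, beside 0.0126%. At an unadjusted p under 0.05, 0 members were higher and 1 was lower, *Klf6*, beside 184 and 542 of all genes. edgeR's quasi-likelihood test on the recovered tags called 0 members, and DESeq2 called 1, *Klf6*, with an adjusted p of 0.020. The median log2 difference of the 10 members was −0.01, against 0.04 over all genes. The groups were apart for 3 members, all lower with LEV, beside 13.4% of all genes.

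*Klf6* was at 57.9 and 40.6 CPM in SE + LEV 6 h mice (49.3 ± 12.2, SD, n = 2), against 134 and 140 CPM without LEV. The log2 difference was −1.50 ± 0.33 (SE), with an interval from −2.23 to −0.77 and an adjusted p of 0.29. Over the alternatives the adjusted p ran from 0.020 to 1.0. Against pre-SE mice, *Klf6* in SE + LEV 6 h mice was higher by 0.67 (−0.06 to 1.40, adjusted p = 0.55), with both mice above both pre-SE mice.

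*Klf4* was at 20.1 and 14.0 CPM with LEV, between the SE 6 h and the pre-SE mice. It was lower than without LEV by an estimate of −0.81 (−1.65 to 0.02, adjusted p = 1.0). Against pre-SE it was the 1 of 10 members called higher in SE + LEV 6 h mice, beside 0.315% of all genes, with 0 called lower beside 0.00631%. The log2 difference to pre-SE was 2.30 ± 0.38 (SE) and the adjusted p 0.038. This call was lost in 11 of the 22 alternatives, among them the omission of any pre-SE, SE 6 h or SE + LEV 6 h mouse (adjusted p from 0.081 to 0.25). With replicate number as a block the adjusted p was 0.061.

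*Klf7* at 21.6 and 19.3 CPM with LEV was also below both SE 6 h mice (−0.55, −1.21 to 0.10, adjusted p = 1.0). The remaining 7 members overlapped between SE + LEV 6 h and SE 6 h mice. *Klf2* was at 13.0 and 16.0 CPM, between the SE 6 h mice, and *Klf10* at 31.0 and 64.9 CPM, on either side of them. Against pre-SE, both had an unadjusted p under 0.05 (log2 differences 1.31 and 1.01, adjusted p = 0.42 for each). With *Klf4* these were 3 members higher and 0 lower, beside 876 and 611 of all genes. The SE + LEV 6 h levels all lay above the pre-SE levels for 6 members, beside 17% of all genes, and below them for 1, beside 25.5%. *Klf9* was at 286 and 189 CPM, *Klf13* at 129 and 103 CPM and *Klf3* at 36.6 and 35.1 CPM. *Klf5* was at 39.9 and 25.0 CPM and *Klf15* at 41.1 and 18.5 CPM. The level of *Klf9* thus exceeded both pre-SE mice with and without LEV at 6 h, by 0.54 (adjusted p = 0.55) and 0.57 (adjusted p = 0.28), comparisons that share the pre-SE mice.

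At 2 days, SE + LEV mice were compared with SE mice without a call in any member or any gene. The 0 members called higher and 0 called lower stand beside 0% and 0% of all genes. At an unadjusted p under 0.05, *Klf6* was lower and no member was higher, beside 220 genes lower and 208 higher. edgeR's quasi-likelihood test and DESeq2 called 0 members. *Klf6* was at 55.1 and 38.5 CPM with LEV, below the SE 2 days mice at 59.7 and 116 CPM (log2 difference −0.85, −1.57 to −0.12, adjusted p = 1.0). The gap between the nearest mice of the groups was small, 55.1 against 59.7 CPM.

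*Klf15* was the 1 member for which both LEV mice, at 11.3 and 29.5 CPM, were above both SE 2 days mice, beside 15.2% of all genes. Its log2 difference was 1.09 (−0.08 to 2.26, adjusted p = 1.0). In the same comparison the estimates of all 5 oligodendrocyte markers were higher with LEV, 0 of them called, and their sums were 3111 and 4492 CPM against 1677 and 2605 CPM. Before SE these sums were 4830 and 5253 CPM, with *Klf15* at 34.2 and 16.1 CPM. In SE 6 h mice they were 3311 and 6380 CPM, with *Klf15* at 25.1 and 19.2 CPM. Of the 7 astrocyte markers, 5 estimates were higher with LEV at 2 days and 2 lower, with 0 called. The part of either cell type in the level of *Klf15* was not tested. *Klf10* at 41.4 and 24.5 CPM and *Klf9* at 161 and 132 CPM were below the SE 2 days mice in both animals, with differences of −0.58 and −0.15. With *Klf6* this made 3 members, beside 12.2% of all genes. *Klf5* was at 28.3 and 15.3 CPM, without a mouse at the level of the SE 2 days replicate 2. *Klf4* at 3.91 and 6.20 CPM, *Klf2* at 5.92 and 8.21 CPM, *Klf7* at 14.5 and 18.2 CPM, *Klf3* at 57.5 and 44.7 CPM and *Klf13* at 136 and 79.3 CPM overlapped with the SE 2 days mice.

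Against pre-SE, 0 members were called in SE + LEV 2 days mice, beside 2.83% of all genes called higher and 0.0189% called lower. At an unadjusted p under 0.05, 0 members were higher or lower, beside 1404 genes higher and 303 lower, and edgeR's quasi-likelihood test and DESeq2 called 0 members. *Klf4* and *Klf6* were above both pre-SE mice, by 0.55 and 0.60, as were 22.6% of all genes. The effect of LEV at 2 days was then compared with that at 6 h. For *Klf6* the effect was smaller in size by 0.65 at 2 days (−0.38 to 1.68, adjusted p = 1.0). By this test 0 members were called higher or lower, beside 0% and 0% of all genes, and 0 had an unadjusted p under 0.05, beside 251 genes higher and 126 lower. edgeR's quasi-likelihood test and DESeq2 called 0 members as well.

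**Figure D3:**
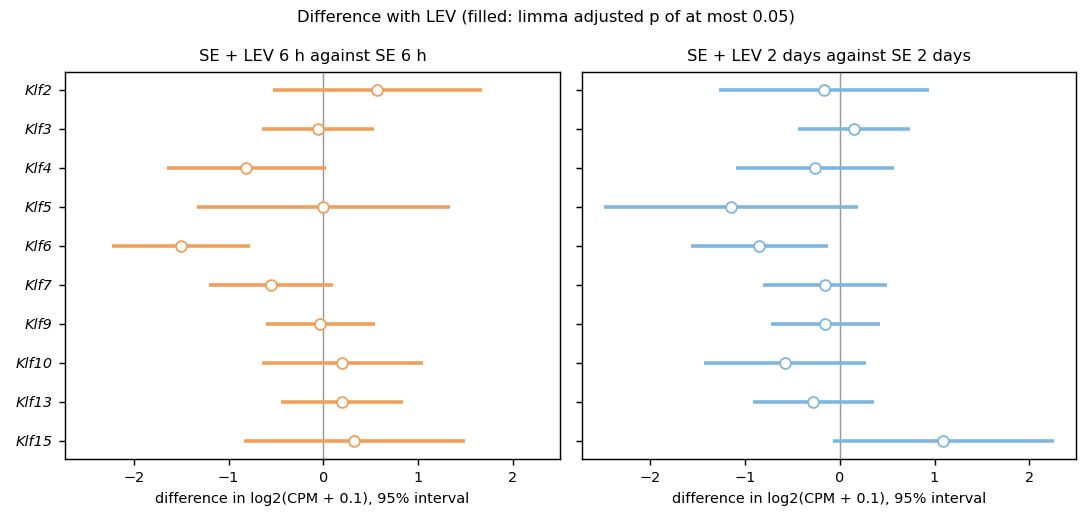
Log2 difference of each gene between SE + LEV and SE mice (horizontal axes, difference in log2(CPM + 0.1)) at 6 h (left) and 2 days (right). Points are the limma estimates and bars their 95% intervals; no point reached an adjusted p of 0.05, and the intervals of *Klf6* lie below 0 at both times (−1.50 and −0.85).

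The make-up of the 10 members as a whole shifted with *Klf6*. Its share of the summed level was 6.49% before SE, 20.2% at 6 h and 15.3% at 2 days, and 8.20% and 10.3% in the corresponding LEV groups. The share of *Klf13* was 28.8% before SE, 14.8% at 6 h and 22.2% at 2 days. *Klf9* stayed the most abundant member in all 5 groups, with 28.4% to 39.5%. The sums with LEV were 676 and 526 CPM at 6 h and 515 and 396 CPM at 2 days, and those of SE 2 days mice 534 and 609 CPM.

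**Figure D4:**
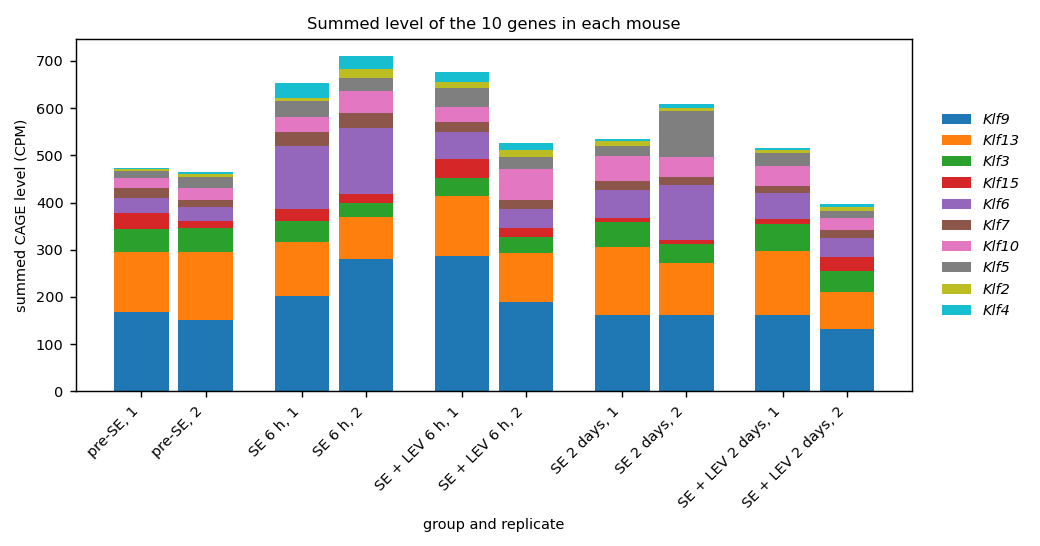
Summed CAGE level of the 10 genes in CPM (vertical axis, from 0) in each mouse, stacked by gene. The SE 6 h mice reached 653 and 710 CPM against 474 and 465 CPM in pre-SE mice, and the segment of *Klf6* is the one that widened most.

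The genes whose levels followed *Klf4* and *Klf6* most closely over the 10 libraries were found by Pearson's r on log2(CPM + 0.1), as a description of libraries that share groups. For *Klf6* they were *Tnfrsf23* (r = 0.986), *Gadd45g* (0.971) and *Areg* (0.968). *Gadd45g*, a stress-induced growth arrest gene, had mean levels of 23.0 CPM before SE, 659 at SE 6 h, 74.5 at SE + LEV 6 h, 176 at SE 2 days and 40.0 at SE + LEV 2 days. *Areg*, which encodes the EGF receptor ligand amphiregulin, had 0.105, 16.2, 0.330, 5.54 and 0.295 CPM. For *Klf4* they were Gm8741 (0.983), *Erc1* (0.974) and *Btg3* (0.971). *Btg3*, an antiproliferative gene, had 27.2, 63.9, 46.9, 37.2 and 28.5 CPM in the same order of groups.

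Other KLF genes in the table, *Klf8*, *Klf11*, *Klf12* and *Klf16*, were called in 0 of the comparisons. At 2 days after SE, 3 of these 4 were lower than before SE at an unadjusted p under 0.05 (limma), beside 1155 of all genes. Both SE 2 days mice lay below both pre-SE mice for 3 of them, beside 25.6% of all genes. They lay above for 1, beside 26.3%. The median log2 difference of the 4 was −0.88. The related SP genes bind the same GC boxes. Of the 6 in the table, *Sp7*, known from bone, was called higher at SE 6 h, from 0.14 and 0.08 CPM (4 tags in each library) to 4.43 and 4.66 CPM (adjusted p = 0.042). Of 16 genes for KLF cofactors and ubiquitin ligases, 2 were called higher at 6 h, beside 2.76% of all genes. *Sap30*, a subunit of the SIN3A complex, rose by 2.31 (adjusted p = 0.0084). *Rbbp7*, a histone-binding protein of the same complex, rose by 1.19 (adjusted p = 0.047). *Rbbp7* overlaps *Txlng* on the other strand. The median over the 16 genes was 0.03.

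Endothelial genes known as targets of KLF2 and KLF4 were higher at 6 h, with 4 of the 5 in the table called, beside 2.76% of all genes. *Icam1*, an adhesion molecule for leukocytes, had a mean of 12.4 CPM at SE 6 h and 1.56 CPM before (log2 difference 2.86, adjusted p = 0.0092). *Thbd* (thrombomodulin) rose by 2.48 (adjusted p = 0.030), *Edn1* (endothelin 1) by 2.45 (adjusted p = 0.011) and *Nos3* (endothelial nitric oxide synthase) by 1.98 (adjusted p = 0.034). KLF2 is known to raise *Thbd* and *Nos3* and to restrain *Edn1*, and these 3 genes all rose. Since the list mixes both kinds, its rise was not taken as a measure of the activity of KLF2 or KLF4. The median over the 5 genes was 2.45. *Nos3* overlaps *Atg9b* and Gm15587 on the other strand, and *Icam1* overlaps Mir1900, annotated as a lincRNA, on the other strand. Of the 8 endothelial markers, *Esam* alone was called (1.68, adjusted p = 0.031), 5 estimates were higher and 3 lower, and the median was 0.74. *Slco1a4*, a transporter of the blood-brain barrier chosen here after its values were seen, was at 16.2 and 13.1 CPM before SE and at 3.75 and 4.80 CPM at SE 6 h (adjusted p = 0.11). The summed level of the 8 markers was 81 and 84 CPM before SE and 119 and 192 CPM at SE 6 h. How much of the change in the target genes goes with the endothelial markers was not tested. At 2 days *Thbd* and *Icam1* were called higher, beside 5.07% of all genes. With LEV at 6 h only *Icam1* was called against pre-SE, beside 0.315% of all genes called higher. None of the 5 was called between LEV and SE mice at either time.

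The genes of the MEK5-ERK5-MEF2 pathway upstream of *Klf2* and *Klf4* were called in 0 of 7 cases at 6 h and at 2 days, with medians of −0.28 and −0.20. Of all genes, 2.76% were called higher and 0.202% lower at 6 h, and 5.07% and 0.593% at 2 days. These are RNA levels, and the activity of the kinases was not measured. Glucocorticoids also raise *Klf9* and *Klf15*. Of 10 glucocorticoid genes, the receptor genes *Nr3c1* and *Nr3c2* and genes that the hormone induces, 2 of the induced ones were called higher at 6 h. Of all genes, 2.76% were called higher at that time. *Errfi1*, an inhibitor of the EGF receptor, rose by 3.15 (adjusted p = 0.0054), and *Dusp1*, a phosphatase of MAP kinases, by 2.94 (adjusted p = 0.0050). Both are known to be induced by other stimuli too, and *Errfi1* overlaps 1700045H11Rik. At 6 h, 5 of the 10 estimates were higher and 5 lower, receptors included. The median over these 10 genes was 0.24 at 6 h and −0.19 at 2 days. The part of glucocorticoids in the levels of the KLF genes was not tested.

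The levels of markers of other cells in the hippocampus were compared between the times. The summed level of 7 microglia markers was 372 and 437 CPM before SE, 293 and 267 at SE 6 h and 865 and 1020 at SE 2 days. Within it *P2ry12* went the other way at 2 days, with 18.1 and 16.9 CPM against 41.5 and 26.9 CPM before SE (adjusted p = 0.26), while *Aif1* was called higher. The 7 astrocyte markers also split at 2 days. *Gfap* (log2 difference 3.60, adjusted p = 0.0010) and *Aqp4* (1.57, adjusted p = 0.011) were called higher, and *Slc1a2*, *Slc1a3*, *Gja1* and *Aldoc* had differences from −1.18 to −0.73 without a call. The sum of 5 oligodendrocyte markers was 4830 and 5253 CPM before SE and 1677 and 2605 CPM at SE 2 days. At SE 6 h it was 3311 and 6380 CPM, on either side of the pre-SE mice. The neuron markers summed to 10143 and 9055 CPM before SE, 8617 and 5776 at SE 6 h and 6145 and 4972 at SE 2 days. At 6 h, 6 of the 7 neuron estimates were lower and 1 was higher. Of the 5 oligodendrocyte and 7 neuron markers, 0 were called lower at 6 h or at 2 days, beside 0.202% and 0.593% of all genes. The part of these cell types in the levels of the KLF genes was not tested.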

How the data were processed

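CAGE of whole hippocampi was used from 10 mice, 2 in each of 5 groups. The authors mapped tags to mm9 with BWA 0.7.17 and the remainder with HISAT2 2.0.5, and clustered them with RECLU. Clusters under 0.1 CPM, longer than 200 bp or not reproducible between replicates were discarded, and the deposited values are CPM per gene and mouse. How clusters were summed to genes, and whether strand was used, is not given in the sources used here, and 0 columns of other samples were present. Tag counts were recovered as whole multiples of 1 tag within 0.0051 CPM (100% of values), at 10540698 to 51710968 tags per library, which sets the precision of low values. In the 7 deeper libraries rounding to 2 decimals blurs single tags (1 tag was worth 0.0193 CPM in the deepest), so that their counts follow only from the total that fits all values of the library, a limit of the tests run on tags.

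Genes reaching 0.1 CPM in 2 or more libraries (15851) were fitted on log2(CPM + 0.1) with limma 3.58.1 in R 4.3.3 (5 group means, 10 libraries, 5 residual degrees of freedom, mean-variance trend, two-sided tests, Benjamini-Hochberg adjustment over all these genes), in 8 comparisons. An adjusted p of at most 0.05 was called. This scale understates the change of low genes. The smallest two-sided exact permutation p for 2 mice against 2 is 0.333, so that calls rest on the spread shared across genes. The scripts were tested on simulated data.

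The alternatives, 22 in all, were pseudocounts of 0.01, 0.5 and 1, no filter, a filter at 1 CPM, each mouse left out, a block for replicate number, rescaling by median of ratios, no trend, a fit limited to the compared groups, DESeq2 1.42.0 and edgeR 4.0.16 (quasi-likelihood) on recovered tags, and a choroid plexus covariate added after the data were seen. The members and gene lists were chosen with earlier results of these data known. Named besides the members are list genes called in a comparison, up to 4 per list, and the 3 genes most correlated with each member called after SE. Loci come from the GENCODE annotation of mm9 and promoters from RefSeq (GRCm38.p6). Protein sequences were not used here, and a gene that the naming rule covers is not reported here.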

Additional observations from a re-analysis of the deposited data

Results flagged for a closer look

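The level of *Klf4* differed between the times after SE. The SE 6 h mice had 31.1 and 28.0 CPM, the SE 2 days mice 4.54 and 7.69 CPM, and the difference of the differences from pre-SE was −2.30 on the log2 scale (SE 0.38, adjusted p = 0.0091 with limma over all genes tested). Both SE 2 days mice were below both SE 6 h mice. The comparisons of the 2 times with pre-SE share the pre-SE mice, which cancel in this difference.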

How the results depend on the processing

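Of the calls after SE, that of *Klf4* at 6 h was kept in all 22 alternatives, with adjusted p from 7.6e-14 to 0.029 and differences from 2.82 to 3.32. *Klf6* at 6 h was called in 21 and *Klf6* at 2 days in 18 of them, *Klf4* at SE 2 days against SE 6 h in 19 and *Klf4* at SE + LEV 6 h against pre-SE in 11. For SE 2 days against pre-SE, 0 members were called higher without the mean-variance trend and 2 with DESeq2 (*Klf6* and *Klf5*), which also called 1 lower (*Klf15*). DESeq2 called 1 lower for SE + LEV 6 h against SE 6 h. For SE + LEV 6 h against pre-SE, 0 members were called with pseudocounts of 0.5 and 1, with the replicate block, without the trend and with only the groups compared. For SE 2 days against SE 6 h, 2 members (*Klf4* and *Klf15*) were called lower with only the groups compared and with DESeq2. Differences near 0 changed sign after median-of-ratios rescaling: *Klf15* at SE 6 h to 0.031, *Klf5* at SE + LEV 6 h against SE 6 h to −0.056 (−0.010 with DESeq2), and *Klf3* at SE + LEV 2 days against pre-SE to −0.0019. The cause was not tested.

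Same-numbered mice are different animals and the labels tie them by number only. Their deviations from the group means correlated at −0.44 to 0.34 across genes in the 7 pairs of groups. With the replicate block 2 members were called higher at SE 6 h and 1 at SE 2 days against pre-SE, and it ended no call other than that of *Klf4* at SE + LEV 6 h (adjusted p = 0.061).

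With each mouse left out in turn, where the remaining mouse of a group is assumed to vary like the others, 1 to 2 members were called higher at SE 6 h and 0 to 2 at SE 2 days against pre-SE, 0 to 1 at SE + LEV 6 h against pre-SE, and 0 to 1 lower at SE 2 days against SE 6 h. The log2 differences that changed sign, none of them called, had these ranges. For SE 6 h against pre-SE they were −0.64 to 0.45 for *Klf15* and −0.088 to 1.56 for *Klf2*. For SE 2 days against pre-SE they were −0.29 to 0.095 for *Klf13*, −0.31 to 0.069 for *Klf3*, −0.31 to 0.42 for *Klf7* and −0.052 to 0.097 for *Klf9*. For SE + LEV 6 h against SE 6 h they were −0.33 to 0.73 for *Klf10*, −0.24 to 0.90 for *Klf15*, −0.25 to 1.39 for *Klf2*, −0.35 to 0.25 for *Klf3*, −0.34 to 0.34 for *Klf5* and −0.33 to 0.27 for *Klf9*. For SE + LEV 2 days against SE 2 days they were −0.67 to 0.11 for *Klf13*, −0.48 to 0.14 for *Klf2*, −0.045 to 0.34 for *Klf3*, −0.63 to 0.12 for *Klf4* and −0.32 to 0.0066 for *Klf7*. For SE + LEV 6 h against pre-SE they were −0.34 to 0.81 for *Klf15* and −0.15 to 0.59 for *Klf7*. For SE + LEV 2 days against pre-SE they were −0.76 to 0.012 for *Klf13*, −1.05 to 0.33 for *Klf15*, −0.16 to 0.21 for *Klf3*, −0.32 to 0.56 for *Klf5*, −0.47 to 0.26 for *Klf7* and −0.28 to 0.014 for *Klf9*. For SE 2 days against SE 6 h they were −1.12 to 0.52 for *Klf2*, −0.0017 to 0.61 for *Klf3* and −0.54 to 1.64 for *Klf5*. For LEV effect at 2 days against LEV effect at 6 h they were −1.56 to 0.087 for *Klf2*, −0.11 to 0.50 for *Klf3* and −0.42 to 0.18 for *Klf9*. No member was at or under 3 tags, the limit of detection, in any library.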
